A study of Mus musculus with 12 samples.

Results

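Kupffer cells are the resident macrophages of the liver, and 10 genes that mark them were followed here: Clec4f, Cd5l, Vsig4, Timd4, Marco, C1qa, C1qb, C1qc, Adgre1 and Csf1r. The genes were chosen by name, with earlier results of these data known. Setting their medians and counts beside those of all tested genes is therefore a description and not a test. Each gene matched 1 of the 19252 rows of the gene table. The series holds 12 liver RNA libraries of C57BL/6 mice in 3 groups of 4. One group ate a high fat diet and drank water with 2 g of N-acetylcysteine per litre (NAC_HFD), one ate the high fat diet alone (HFD), and one ate a normal fat diet (NFD). The mice were fed for 14 weeks; their age is recorded as 8 weeks, at a point that is not stated. The labels give neither the diets' composition nor whether a library is 1 animal, so p-values measure the spread between these libraries, which may be technical. Values are TPM made by the authors, which give a transcript's share of a fixed total after division by its length, so levels of different genes can be compared and the read depth is unknown.

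Kupffer cells line the sinusoids, the capillaries of the liver, where they take up bacteria, dying cells, aged red cells and lipoproteins from portal blood. Their survival depends on the CSF1 receptor, and their identity on transcription factors that include PU.1 and, in mice, LXRalpha and signals through Notch and RBPJ from the sinusoidal wall. In fatty liver of mice, resident cells are known to be lost in part and replaced by monocyte-derived macrophages, which gain Clec4f first and Timd4 late. In whole-liver RNA, fewer cells of a type and less RNA per cell cannot be told apart.

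Of the 10 genes, 7 had a promoter window in the RefSeq table of build GRCm38.p6. The levels of Clec4f, Cd5l, C1qb and C1qc ran closely together between libraries. Those of Vsig4 did so nearly as closely, but only the windows of the other 4 are shown. They are the 250 bases before the start of Clec4f (chr6:83656117-83656366, minus strand), Cd5l (chr3:87357631-87357880, plus strand), C1qb (chr4:136886201-136886450, minus strand) and C1qc (chr4:136892915-136893164, minus strand), written 5′ to 3′ on the strand of the gene. The start is the one the promoter table uses. For C1qc it lies inside the span given for the gene, so the end of that window overlaps the gene. Capitals mark a match to GAGGAA, a core of PU.1 sites, or to TGGGAA, a core of RBPJ sites, on either strand (TTCCTC and TTCCCA on the other). Each of these 4 windows held 1 match, so no matches overlapped.
Clec4f: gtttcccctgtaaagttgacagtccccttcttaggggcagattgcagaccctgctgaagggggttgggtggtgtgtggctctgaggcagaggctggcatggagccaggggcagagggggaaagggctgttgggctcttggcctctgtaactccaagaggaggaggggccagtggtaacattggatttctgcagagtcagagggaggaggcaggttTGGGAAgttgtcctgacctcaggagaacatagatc
Cd5l: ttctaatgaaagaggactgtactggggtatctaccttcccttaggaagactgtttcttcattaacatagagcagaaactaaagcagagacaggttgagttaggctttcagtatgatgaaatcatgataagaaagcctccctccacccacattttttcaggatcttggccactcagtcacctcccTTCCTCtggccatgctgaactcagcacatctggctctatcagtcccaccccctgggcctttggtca
C1qb: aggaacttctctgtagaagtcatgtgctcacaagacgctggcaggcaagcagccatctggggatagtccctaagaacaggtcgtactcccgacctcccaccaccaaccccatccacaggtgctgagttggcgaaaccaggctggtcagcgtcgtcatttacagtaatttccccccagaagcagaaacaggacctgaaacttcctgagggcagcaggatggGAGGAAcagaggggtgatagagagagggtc
C1qc: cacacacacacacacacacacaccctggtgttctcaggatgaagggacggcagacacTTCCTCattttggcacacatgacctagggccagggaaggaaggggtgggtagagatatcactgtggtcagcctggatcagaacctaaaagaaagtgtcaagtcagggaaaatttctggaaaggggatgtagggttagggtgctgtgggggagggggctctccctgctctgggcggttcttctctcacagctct
GAGGAA was found in 5 of the 7 windows (Marco, Cd5l, C1qb, C1qc and Vsig4), against 23.3% of all 32851 windows of the same length. TGGGAA was found in 2 of the 7 (Clec4f and Marco), against 21.6% of all windows. In Clec4f the TGGGAA match began 35 bases before the start, and in C1qb the GAGGAA match began 30 bases before it. A match is a description of these letters and not a measured binding site.

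All 10 genes had a higher mean in HFD than in NFD livers and a lower mean in NAC_HFD than in HFD livers, but no gene passed the test in any of the 3 comparisons (limma over the 11376 genes with at least 1 TPM in at least 4 libraries, adjusted p under 0.05). The 10 genes summed to 108 ± 34.0 TPM in NAC_HFD, 186 ± 66.9 TPM in HFD and 118 ± 30.4 TPM in NFD (SD, n = 4 each). The sums ran from 74.7 to 147 TPM in NAC_HFD, from 108 to 271 TPM in HFD and from 80.9 to 153 TPM in NFD, so the groups overlapped. The order of the genes by mean level over the 12 libraries was Cd5l, C1qb, C1qa and Clec4f at 28.0 to 20.7 TPM, then Csf1r, C1qc and Vsig4 at 13.2 to 10.1 TPM. Adgre1 at 4.15, Marco at 1.88 and Timd4 at 1.45 TPM stood below. Neighbours in this order overlapped in their ranges over the libraries.

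**Figure D1:**
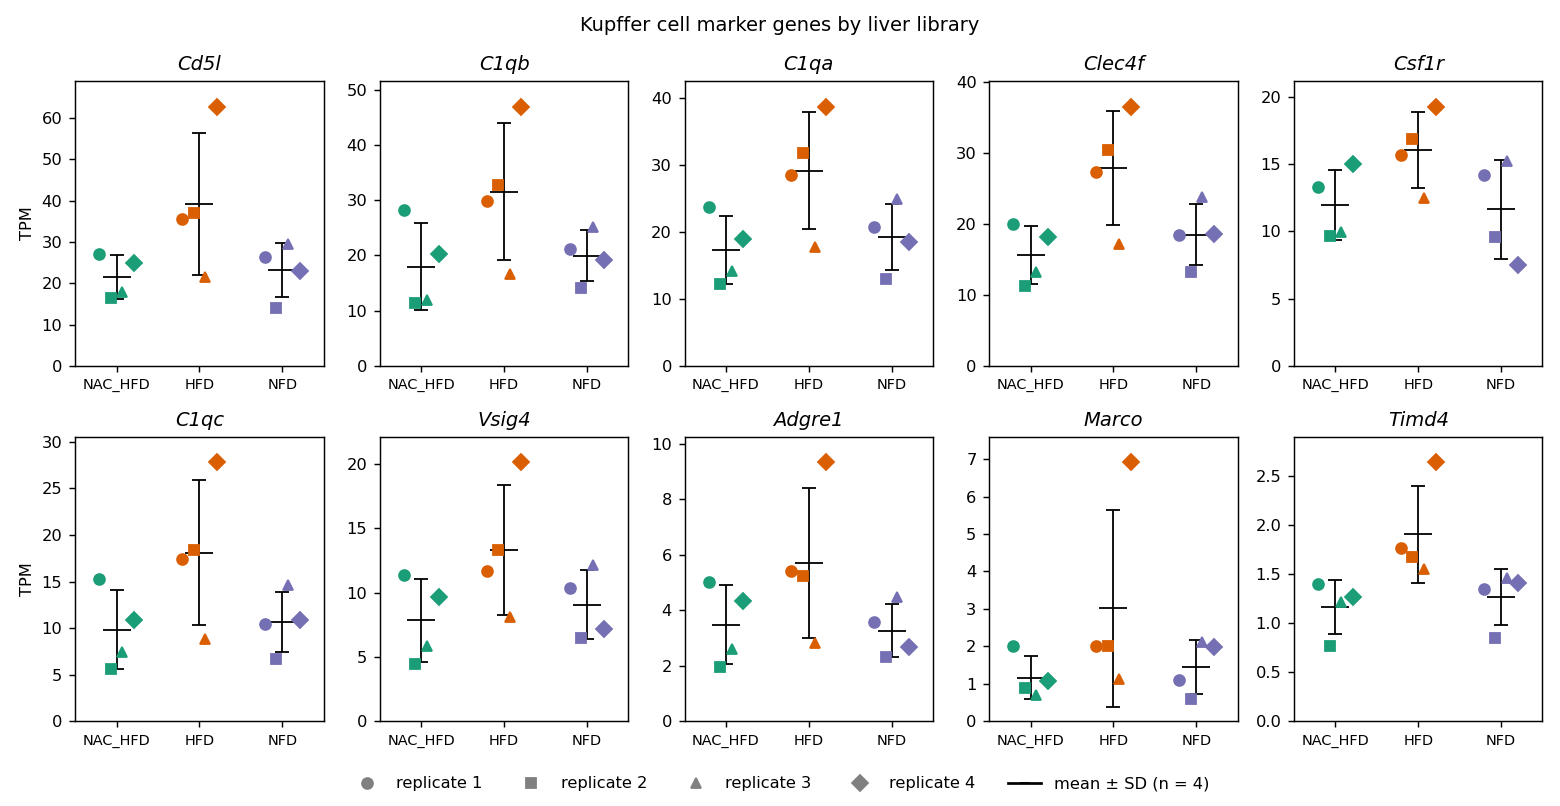
TPM of each of the 10 genes (y axis, starting at 0) in each library of the 3 groups (x axis); symbols give the replicate number, and bars the mean ± SD of 4 libraries. In every panel HFD replicate 4 is the highest of the 12 libraries and HFD replicate 3 the lowest of the HFD libraries, down among the NFD values in all panels but that of Timd4.

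Clec4f (chr6:83644542-83656116; ENSMUSG00000014542) encodes a galactose-binding C-type lectin that in mice is confined to Kupffer cells. It was at 19.98, 11.29, 13.15 and 18.18 TPM in NAC_HFD replicates 1 to 4, at 27.31, 30.42, 17.18 and 36.47 TPM in HFD and at 18.45, 13.18, 23.73 and 18.55 TPM in NFD. HFD replicates 1, 2 and 4 were higher than every other library, while HFD replicate 3 lay below the NFD mean. The log2 fold change, on the log2(TPM + 1) scale, was 0.55 in HFD against NFD (SE 0.24, limma adjusted p = 0.236) and -0.78 in NAC_HFD against HFD (SE 0.24, limma adjusted p = 0.149).

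Cd5l (chr3:87357881-87371074; ENSMUSG00000015854) encodes a secreted scavenger protein of macrophages, also called AIM, which binds IgM in blood and was the most abundant of the 10. It was at 27.15, 16.32, 17.84 and 24.86 TPM in NAC_HFD, at 35.53, 37.14, 21.59 and 62.73 TPM in HFD and at 26.39, 14.10, 29.45 and 22.92 TPM in NFD. Again HFD replicate 3 lay within the NFD range. Its difference on the log2 scale was 0.68 in HFD against NFD, with SE 0.30 and a limma adjusted p = 0.247. With 0.1 TPM added in place of 1, it was 0.71 for Cd5l, 0.71 for Adgre1 and 0.83 for Marco.

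C1qa, C1qb and C1qc encode the 3 chains of C1q, the recognition protein of the classical complement pathway, which macrophages make. They are neighbours on chromosome 4, with C1qb (ENSMUSG00000036905) at chr4:136880126-136886200, C1qc (ENSMUSG00000036896) at chr4:136889801-136892936 and C1qa at chr4:136895916-136898844 (ENSMUSG00000036887). C1qa averaged 17.3 ± 5.11 TPM in NAC_HFD, 29.2 ± 8.75 TPM in HFD and 19.2 ± 4.94 TPM in NFD. C1qb was at 28.24, 11.40, 11.98 and 20.25 TPM in NAC_HFD, at 29.80, 32.75, 16.58 and 46.86 TPM in HFD and at 21.21, 14.07, 25.15 and 19.20 TPM in NFD. C1qc averaged 9.81 ± 4.24 TPM in NAC_HFD, 18.1 ± 7.77 TPM in HFD and 10.7 ± 3.24 TPM in NFD. The 3 genes put the same libraries at the top and bottom of HFD and the same library at the top of NAC_HFD.

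The proportions of the chains varied between libraries, and both C1qb and C1qc were highest relative to C1qa in HFD replicate 4. C1qb was 0.843 to 1.19 times C1qa in NAC_HFD, 0.937 to 1.21 times in HFD and 1.01 to 1.08 times in NFD. C1qc was 0.461 to 0.646 times C1qa in NAC_HFD, 0.497 to 0.719 times in HFD and 0.507 to 0.589 times in NFD. Between groups these ranges overlapped. Their log2 fold changes in HFD against NFD were 0.56 for C1qa, 0.58 for C1qb and 0.66 for C1qc, with limma adjusted p of 0.265, 0.380 and 0.344.

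Marco (chr1:120474538-120505024; ENSMUSG00000026390), a scavenger receptor for bacteria and particles, had the widest spread relative to its mean. It was at 2.00, 0.88, 0.71 and 1.08 TPM in NAC_HFD, at 2.02, 2.00, 1.12 and 6.91 TPM in HFD and at 1.11, 0.59, 2.12 and 1.98 TPM in NFD. The HFD mean rested on replicate 4, and the other HFD libraries lay within the NFD range. The log2 fold change of 0.57 in HFD against NFD (SE 0.37, limma adjusted p = 0.431) was 0.18 without HFD replicate 4, and that of -0.73 in NAC_HFD against HFD was -0.34 without it.

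Timd4 (chr11:46810786-46844333; ENSMUSG00000055546), a phosphatidylserine receptor for dying cells that marks long-resident Kupffer cells, was the only one of the 10 whose HFD libraries did not overlap with those of either other group. It was at 1.40, 0.77, 1.22 and 1.27 TPM in NAC_HFD, at 1.77, 1.68, 1.55 and 2.64 TPM in HFD and at 1.35, 0.85, 1.46 and 1.41 TPM in NFD. All HFD libraries were above all libraries of the other groups, as were 7.78% of all tested genes against NFD, while 8.66% had all NAC_HFD libraries below all HFD libraries. The log2 fold change was 0.35 in HFD against NFD (SE 0.14, limma adjusted p = 0.195) and -0.42 in NAC_HFD against HFD (SE 0.14, limma adjusted p = 0.179). At these levels the added 1 TPM makes a fold change smaller: with 0.1 TPM added it was 0.55 in HFD against NFD and -0.67 in NAC_HFD against HFD.

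The ratio of Timd4 to Clec4f does not depend on how many Kupffer cells the tissue holds, if both genes come from them alone. It was 0.0701, 0.0682, 0.0928 and 0.0699 in NAC_HFD, 0.0648, 0.0552, 0.0902 and 0.0724 in HFD and 0.0732, 0.0645, 0.0615 and 0.0760 in NFD. The groups overlapped. On the log2 scale with 0.1 TPM added, HFD minus NFD was -0.015 (exact permutation p = 0.943), NAC_HFD minus HFD was 0.15 (exact permutation p = 0.343) and NAC_HFD minus NFD was 0.13 (exact permutation p = 0.400). The tests were two-sided, with adjusted p of 0.943, 0.600 and 0.600 over the 3, and 4 libraries against 4 cannot give a p below 0.0286. At this number of libraries the test does not show that the ratios were alike.

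Vsig4 (chrX:96247201-96293438; ENSMUSG00000044206), the complement receptor CRIg that clears bacteria from blood, averaged 7.85 ± 3.23 TPM in NAC_HFD, 13.3 ± 5.04 TPM in HFD and 9.05 ± 2.67 TPM in NFD. Adgre1 (chr17:57358581-57483529; ENSMUSG00000004730), the adhesion receptor known as F4/80, averaged 3.48 ± 1.43 TPM in NAC_HFD, 5.70 ± 2.69 TPM in HFD and 3.26 ± 0.963 TPM in NFD. Both were highest in HFD replicate 4, at 20.12 and 9.32 TPM, and both overlapped between all groups. Csf1r (chr18:61105572-61131139; ENSMUSG00000024621), the receptor for the growth factors CSF1 and IL-34, differed least by ratio of means: it was at 11.96 ± 2.60 TPM in NAC_HFD, 16.1 ± 2.82 TPM in HFD and 11.6 ± 3.67 TPM in NFD. HFD was 1.38 times NFD for Csf1r, while for the other genes it was 1.47 (Vsig4) to 2.08 times (Marco).

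The first comparison asks what the high fat diet does. In HFD against NFD the 10 log2 fold changes ran from 0.35 (Timd4) to 0.68 (Cd5l) with a median of 0.56, where the median over all 11376 tested genes was 0.014. A fold change at least as high as 0.56 was found in 3.31% of all tested genes, and 52.7% were positive. Limma called 0 of the 10, and it called 2.78% of all tested genes (316), with 249 higher (2.19%) and 67 lower (0.589%). At an unadjusted p under 0.05 there were 4 of the 10 (Timd4, Clec4f, Csf1r and Cd5l), against 19.1% of all tested genes. That count was 2 after quantile normalization and 1 after rescaling within the gene table. It was 0 without HFD replicate 4 and 0 without NFD replicate 2. Without HFD replicate 1, HFD replicate 2 or NFD replicate 4 it was 1, and without HFD replicate 3 it was 10. The 10 genes varied together between libraries, so such counts are not 10 separate results. The median was 0.37 without HFD replicate 4, 0.40 without NFD replicate 2 and 0.79 without HFD replicate 3.

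The second comparison asks what N-acetylcysteine, a cysteine precursor, does on that diet. It shares the HFD libraries with the first, so the 2 comparisons are not independent. In NAC_HFD against HFD the log2 fold changes ran from -0.80 (C1qc) to -0.40 (Csf1r) with a median of -0.72, where the median over all tested genes was -0.085. A fold change at least as low as the members' median was found in 1.35% of all tested genes, and 68.5% were negative. Limma called 0 of the 10 and 0% of all tested genes. At an unadjusted p under 0.05 there were 7 of the 10, all but Marco, Adgre1 and Csf1r, against 16.4% of all tested genes. That count was 4 after median-of-ratios scaling and 3 after quantile normalization. It was 2 without HFD replicate 4 and 10 without HFD replicate 3. Of the treated libraries, leaving out NAC_HFD replicate 2 gave 2, NAC_HFD replicate 3 gave 3 and NAC_HFD replicate 1 gave 9. The median was -0.50 without HFD replicate 4, -0.59 without NAC_HFD replicate 2 and -0.95 without HFD replicate 3.

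In NAC_HFD against NFD the log2 fold changes ran from -0.23 (Clec4f) to 0.06 (Csf1r) with a median of -0.15, where the median over all tested genes was -0.070. Of the 10 genes 8 were negative, as were 62.5% of all tested genes, and 0 had groups that did not overlap (3.52% of all tested genes higher and 8.52% lower). NAC_HFD was 0.805 (Marco) to 1.07 times (Adgre1) the NFD mean. Limma called 0 of the 10, while 5.28% of all tested genes passed (601), with 200 higher (1.76%) and 401 lower (3.52%). That split was 371 higher and 251 lower after median-of-ratios scaling and 314 and 294 after quantile normalization. None of the 10 had an unadjusted p under 0.05, against 22.6% of all tested genes, and these estimates had SE of 0.14 to 0.37, so differences of that size were not detectable.

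**Figure D2:**
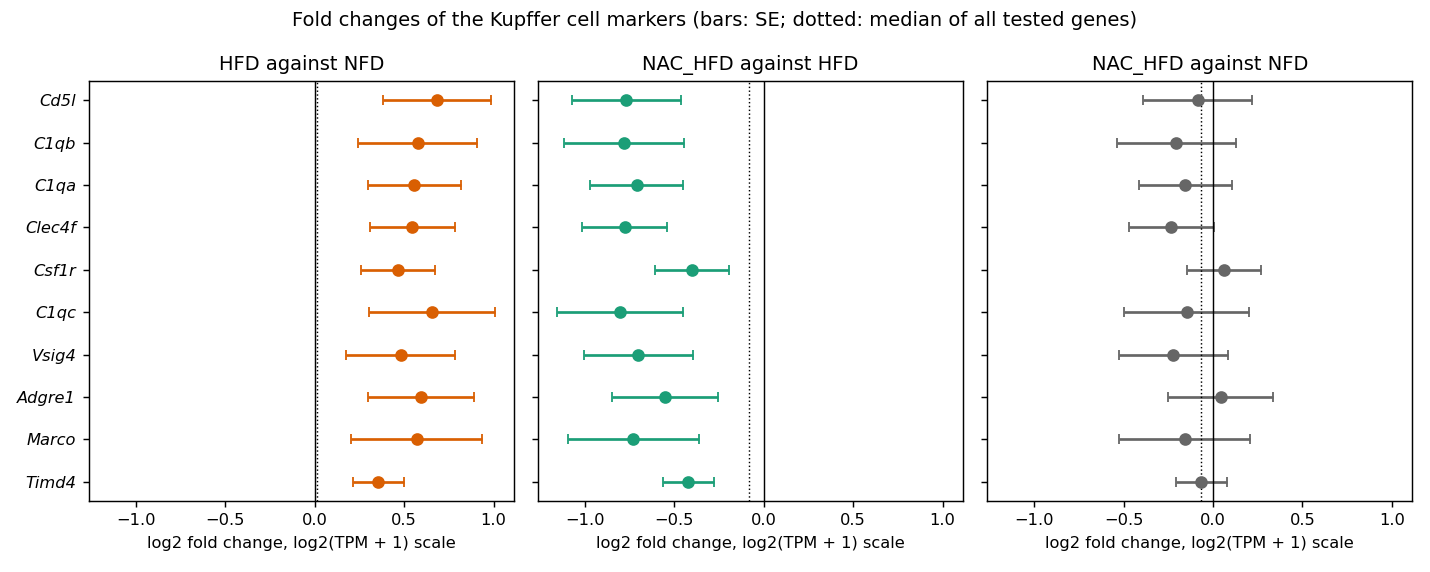
Log2 fold changes of the 10 genes with their SE (x axis, on the log2(TPM + 1) scale) for HFD against NFD, NAC_HFD against HFD and NAC_HFD against NFD; the dotted line is the median of all tested genes. The points lie right of 0 at 0.35 to 0.68 in the first panel, left of it at -0.80 to -0.40 in the second, and at -0.23 to 0.06 in the third.

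The 10 genes ran up and down together between libraries of the same diet. HFD replicate 4 was the highest of the 12 libraries in 10 of 10 genes, as in 4.24% of all tested genes. HFD replicate 3 was the lowest HFD library in 10 of 10 (29.9% of all tested genes) and NFD replicate 3 the highest NFD library in 10 of 10 (32.2%). NAC_HFD replicate 1 was the highest of its group in 9 of 10 (25.7%), the exception being Csf1r. As the median over the 10 genes, the libraries stood at 125%, 60.7%, 72.5% and 102% of the NFD mean in NAC_HFD, at 148%, 160%, 90.7% and 229% in HFD and at 107%, 69.1%, 130% and 97.6% in NFD.

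After the group means were subtracted, Pearson's r between 2 of the 10 genes over the 12 libraries had a median of 0.89 over the 45 pairs. It ran from 0.44 (Marco with Csf1r) to 0.99 (Clec4f with C1qa). These values describe libraries that share a TPM total and, for both genes of a pair, the same RNA. The 6 other tested genes most like the mean profile of the 10 were Lyz2 (r = 0.98), Themis2 (0.98), Cybb (0.98), Ctss (0.97), Cfp (0.97) and Siglec1 (0.97). Lyz2 encodes lysozyme of macrophages and other myeloid cells, Cybb the catalytic subunit of the phagocyte NADPH oxidase, Ctss a lysosomal protease of antigen-presenting cells, Cfp the complement protein properdin and Siglec1 a sialic acid receptor of macrophages. None of the 6 passed the test in a comparison, and 20 of 11366 genes other than the 10 reached an r of 0.9.

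**Figure D3:**
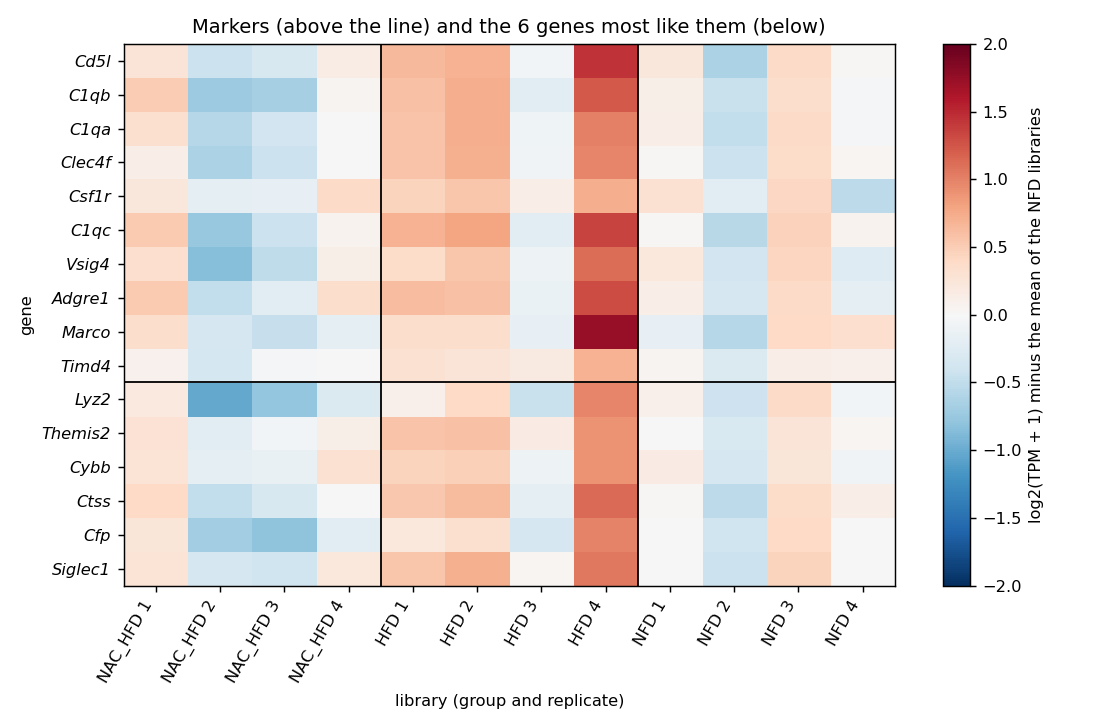
Each gene's log2(TPM + 1) minus its NFD mean (colour scale) in the 12 libraries (x axis); the 10 markers stand above the line, and the 6 genes with the most similar profile within groups below it. Columns rather than single genes stand out: HFD replicate 4 is red in every row. For the 10 markers, NAC_HFD replicate 2 and NFD replicate 2 are blue, only faintly for Csf1r, and HFD replicate 3 is pale.

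Further genes of the lineage were counted from lists of known markers. Of 20 other Kupffer cell genes 18 were tested. Limma called 1 of them higher in HFD against NFD (2.19% of all tested genes). It called 0 in NAC_HFD against HFD (0% of all tested genes) and 0 in NAC_HFD against NFD (5.28%). That gene was Hpgd, an enzyme that breaks down prostaglandins. It was at 71.1 ± 23.4 TPM in NAC_HFD, 78.0 ± 6.59 TPM in HFD and 46.6 ± 3.87 TPM in NFD. Its log2 fold change in HFD against NFD was 0.73 (limma adjusted p = 0.0493). Its HFD libraries ran from 71.64 to 86.02 TPM, where the 10 markers summed to 108 to 271 TPM. Which cells the Hpgd RNA came from was not tested. The Hpgd call was lost without any 1 of the 8 libraries of the 2 groups (highest limma adjusted p = 0.135, without HFD replicate 1). It was also lost with no filter on low genes (limma adjusted p = 0.101), after quantile normalization (0.0555), after rescaling within the gene table (0.0742) and with eBayes without trend and robust weights (0.0567). The list's median was 0.23 in HFD against NFD, with 17 of 18 positive (52.7% of all tested genes). In NAC_HFD against HFD it was -0.29, with 15 of 18 negative (68.5% of all tested genes). Spi1, which encodes PU.1, was at 1.80 ± 0.623 TPM in NAC_HFD, 2.68 ± 1.27 TPM in HFD and 1.21 ± 0.593 TPM in NFD (limma adjusted p = 0.188 in HFD against NFD). Il18bp, a secreted inhibitor of IL-18, had a log2 fold change of 0.41 there (limma adjusted p = 0.197).

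The ligands of the CSF1 receptor did not pass the test in any comparison. Csf1 was at 5.55 ± 2.96 TPM in NAC_HFD, 6.42 ± 2.52 TPM in HFD and 5.28 ± 1.18 TPM in NFD, and Il34 at 0.938 ± 0.259, 0.905 ± 0.188 and 0.703 ± 0.176 TPM in NAC_HFD, HFD and NFD. Among the 10 genes of ligands and signalling, 0 passed in any comparison. Of all tested genes, 2.78% passed in HFD against NFD, 0% in NAC_HFD against HFD and 5.28% in NAC_HFD against NFD. The list's median was 0.32 in HFD against NFD and -0.45 in NAC_HFD against HFD. Ptpn6, a phosphatase of blood cells, had the smallest p there, at 8.498 ± 1.22 TPM in NAC_HFD, 12.4 ± 1.23 TPM in HFD and 8.83 ± 1.82 TPM in NFD (limma adjusted p = 0.0811 in HFD against NFD). Csf2rb, a cytokine receptor chain, had a log2 fold change of 0.47 in HFD against NFD (limma adjusted p = 0.231).

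Genes that macrophages of every origin express had the same signs as the markers. Of 14 tested pan-macrophage genes 14 had a positive log2 fold change in HFD against NFD (median 0.34; all tested genes 52.7% positive) and 14 a negative one in NAC_HFD against HFD (median -0.44; 68.5% negative). Limma called 0 of them in each comparison. It called 2.78%, 0% and 5.28% of all tested genes in HFD against NFD, NAC_HFD against HFD and NAC_HFD against NFD. Of the 14, 3 had an unadjusted p under 0.05 in HFD against NFD (19.1% of all tested genes). There were 9 in NAC_HFD against HFD (16.4%) and 1 in NAC_HFD against NFD (22.6%). Mpeg1, a pore-forming protein of phagocytes, was at 17.4 ± 2.55 TPM in NAC_HFD, 24.2 ± 8.00 TPM in HFD and 13.7 ± 3.37 TPM in NFD (limma adjusted p = 0.0797 in HFD against NFD). Lgals3, which encodes galectin-3, was at 1.04 ± 0.403 TPM in NAC_HFD, 2.72 ± 0.589 TPM in HFD and 1.74 ± 0.363 TPM in NFD (limma adjusted p = 0.0515 in NAC_HFD against HFD).

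Markers of incoming monocytes were near the limit of the table. Of 10 genes of monocyte-derived macrophages 3 were tested. Ccr2, Itgam, Cx3cr1, Chil3, Vcan and F13a1 were among those that did not pass the filter, with highest values of 0.18 to 1.18 TPM in any library. Plac8, expressed by monocytes and other immune cells, rose to 5.33 ± 1.11 TPM in HFD, against 2.42 ± 0.807 TPM in NFD (limma adjusted p = 0.0185; 0.0705 without HFD replicate 1, and lost also without HFD replicate 2). Ly6c2, a surface protein of monocytes, averaged 1.77 ± 0.398 TPM in HFD livers, against 0.870 ± 0.515 TPM in NFD livers (limma adjusted p = 0.0678). In HFD against NFD 3 of the 3 tested genes were positive (median 0.59; 52.7% of all tested genes). Limma called 1 of the 3 higher there (2.19% of all tested genes). In NAC_HFD against HFD 2 of 3 were negative (median -0.30; 68.5% of all tested genes). In NAC_HFD against NFD 3 of 3 were positive (median 0.42), where 62.5% of all tested genes were negative. Summed, the 10 genes stood at 633 to 845 TPM in NAC_HFD, 626 to 722 TPM in HFD and 514 to 648 TPM in NFD, nearly all of it Fn1, the gene of fibronectin, which hepatocytes also make (limma adjusted p = 0.274 in HFD against NFD). Its part in the values of the 10 Kupffer cell genes was not tested. Of 9 genes of lipid-associated macrophages 6 were tested and 0 passed in any comparison, against at most 5.28% of all tested genes. The list's median was -0.13 in HFD against NFD. Their defining genes Trem2 and Gpnmb stayed at or under 0.44 and 0.46 TPM.

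Of the partners of C1q in the classical complement pathway, which hepatocytes mainly make, 7 were tested. Limma called 1 of the 7, C4b, higher in HFD against NFD, as were 2.19% of all tested genes. C4b, the complement protein that the C1 complex cleaves, rose to 598 ± 106 TPM in HFD, against 398 ± 39.1 TPM in NFD (0.58, SE 0.13, limma adjusted p = 0.0295), a call lost without any 1 of the 8 libraries except HFD replicate 3 and NFD replicate 2 (highest limma adjusted p = 0.109, without HFD replicate 1), with no filter (0.0601) and in a fit of those 2 groups only (0.0527). The protease gene C1s1 averaged 273 ± 10.7 TPM in HFD livers, against 234 ± 17.3 TPM in NFD livers, and C2 averaged 38.5 ± 4.01 TPM in HFD livers, against 45.7 ± 2.34 TPM in NFD livers (limma adjusted p of 0.195 and 0.215). The list's median was -0.019 in HFD against NFD.

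Phagocytosis receptors and bridging proteins had 8 tested members with a median of 0.35 in HFD against NFD and -0.36 in NAC_HFD against HFD. Cd36, a fatty acid and scavenger receptor that hepatocytes also express, was the 1 of 8 called in HFD against NFD (2.78% of all tested genes). It averaged 63.3 ± 16.2 TPM in HFD livers, against 16.03 ± 4.03 TPM in NFD livers (limma adjusted p = 0.0161). The call was lost without HFD replicate 1 (limma adjusted p = 0.0631) or without HFD replicate 4. Gas6, which bridges dying cells to the receptor Mertk, averaged 12.6 ± 3.17 TPM in NAC_HFD, 25.6 ± 6.72 TPM in HFD and 17.2 ± 1.60 TPM in NFD (limma adjusted p = 0.148 in HFD against NFD and 0.0522 in NAC_HFD against HFD). Mertk averaged 9.51 ± 1.23 TPM in NAC_HFD, 11.1 ± 0.835 TPM in HFD and 8.74 ± 1.02 TPM in NFD (limma adjusted p = 0.127 in HFD against NFD). Scarf1, a scavenger receptor of endothelial cells and macrophages, fell to 2.94 ± 0.276 TPM in NAC_HFD, against 4.51 ± 0.390 TPM in NFD (limma adjusted p = 0.0171; 0.0543 without NAC_HFD replicate 4 and 0.0526 in a fit of those 2 groups only). It was the 1 of 8 called lower in NAC_HFD against NFD, as were 3.52% of all tested genes.

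Of 10 cytokines and chemokines 4 were tested, while Tnf, Il6, Il10, Ccl2, Ccl3 and Ccl4 did not pass the filter. Limma called 1 of the 4, Il1b, lower in NAC_HFD against NFD, as were 3.52% of all tested genes. Il1b, the inflammatory cytokine of activated macrophages, ran from 0.45 to 1.64 TPM in NAC_HFD, from 1.27 to 3.18 TPM in HFD and from 1.88 to 3.12 TPM in NFD. It fell in NAC_HFD against NFD (-0.98, SE 0.22, limma adjusted p = 0.0253), a call lost with no filter (0.0563) and without any 1 of NAC_HFD replicates 2, 3 and 4 and NFD replicates 3 and 4 (highest limma adjusted p = 0.0738, without NAC_HFD replicate 4). Against HFD it did not pass (-1.001, limma adjusted p = 0.0710), and HFD minus NFD was 0.018. Cxcl10, an interferon-induced chemokine, had a log2 fold change of 0.61 in HFD against NFD (limma adjusted p = 0.245) and Tgfb1, a cytokine of tissue repair, one of -0.25 (limma adjusted p = 0.341).

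Marker lists of the other liver cells were summed per library beside the Kupffer cell genes. Sinusoidal endothelial genes summed to 113 to 148 TPM in NAC_HFD, 131 to 163 TPM in HFD and 126 to 146 TPM in NFD. Limma called 0 of these 10 genes in any comparison, against at most 5.28% of all tested genes. Their median was 0.06 in HFD against NFD (all tested genes 0.014), with 8 of 10 positive (52.7% of all tested genes). In NAC_HFD against HFD it was -0.14 (all tested genes -0.085), with 10 of 10 negative (68.5% of all tested genes). The Kupffer cell genes also had that sign there. Stellate cell genes summed to 116 to 175 TPM in NAC_HFD, 131 to 153 TPM in HFD and 110 to 158 TPM in NFD. Of these 10 genes 0 were called in any comparison, against at most 5.28% of all tested genes. Their median was 0.21 in HFD against NFD and 0.0059 in NAC_HFD against HFD. In HFD replicate 4 these 2 lists were at 98.5% and 101% of the NFD mean, where the Kupffer cell genes were at 229%. Hepatocyte genes summed to 50152 to 67838 TPM in NAC_HFD, 44790 to 60490 TPM in HFD and 51505 to 56528 TPM in NFD. They were at 81.2% of the NFD mean in HFD replicate 4, the lowest of the 12 libraries. Of the 10 genes 1, Cyp2e1, was called (higher in NAC_HFD than in NFD, as were 1.76% of all tested genes). In HFD against NFD the hepatocyte median was -0.10, with 7 of 10 negative, where 52.7% of all tested genes were positive. There 6 of 10 had an unadjusted p under 0.05, against 19.1% of all tested genes. In NAC_HFD against HFD the hepatocyte median was 0.17, with 7 of 10 positive, where 68.5% of all tested genes were negative. There 4 of 10 had an unadjusted p under 0.05, against 16.4% of all tested genes. Both medians had the sign opposite to that of the Kupffer cell genes. The part of the hepatocyte and endothelial values in the Kupffer cell values was not tested.

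**Figure D4:**
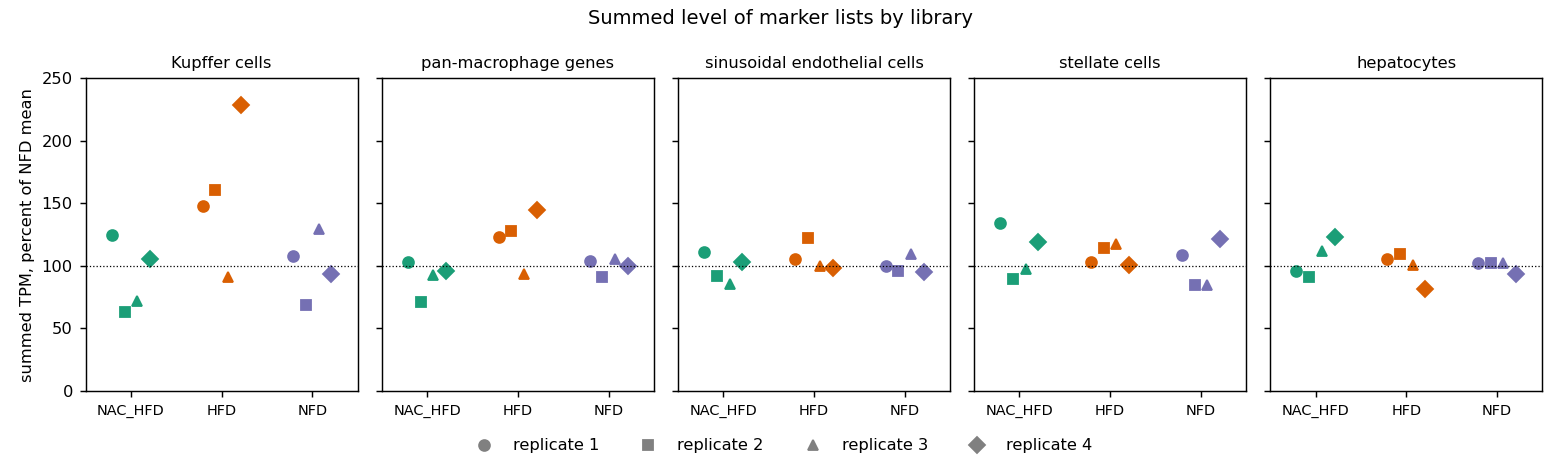
Summed TPM of 5 marker lists as percent of the mean of the NFD libraries (y axis, starting at 0) for each library of the 3 groups (x axis); symbols give the replicate number. The Kupffer cell genes spread from 63.2% to 229%, the pan-macrophage genes from 71.2% to 145%, and the endothelial genes from 85.2% to 122%.

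Lymphoid and neutrophil markers were low in all groups. The 9 T and NK cell genes in the table summed to 3.61 to 7.10 TPM in NAC_HFD, 3.57 to 5.32 TPM in HFD and 2.84 to 5.14 TPM in NFD, and 0 of them passed the filter. The 6 B and plasma cell genes stayed at or under 4.58 TPM in sum, and the 8 neutrophil genes at or under 7.30 TPM. Of cholangiocyte genes 2 of 8 were tested and 0 were called in any comparison, against at most 5.28% of all tested genes.

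Transcripts were read from the authors' transcript tables. For 7 of the 10 genes 1 transcript carried the whole value, and Marco had a second one at 0.40 TPM in HFD replicate 2 and listed at 0 elsewhere. Csf1r had 3 transcripts with a mean of at least 0.5 TPM. Of these ENSMUST00000025523 made up 25.9 ± 2.71% of the gene in NAC_HFD, 41.0 ± 15.01% in HFD and 42.1 ± 13.3% in NFD. Its range was 23.1% to 28.8% in NAC_HFD and 31.7% to 60.4% in NFD, which did not overlap, and 25.8% to 59.4% in HFD, which overlapped both. How many of all transcripts had shares set apart like this was not counted. A share also depends on how reads were split between the gene's transcripts. The transcript ENSMUST00000237706 took 43.3 ± 11.9% in NAC_HFD, 29.9 ± 12.2% in HFD and 25.8 ± 17.3% in NFD, and was listed at 0 in NFD replicate 4.

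In the authors' deposited table of NAC_HFD against HFD, which lists 942 mRNA transcripts, 2 belonged to these genes. The authors' deposited table gives Csf1r ENSMUST00000025523 a log2 fold change of -1.07 (p = 0.00364, adjusted p = 0.148). It gives the main Marco transcript, again in the authors' deposited table, -1.28 (p = 0.0423, adjusted p = 0.477). The authors' deposited table of HFD against NFD lists none of the 10 genes among its 1110 transcripts. The rule for listing a transcript, and the share of all transcripts listed, are not given here. Being listed or absent is therefore not a result about the 10 genes. Adgre1 also had 3 transcripts at a mean of 0.5 TPM or more. Their shares varied widely within groups: ENSMUST00000086763 made up 0% to 51.4% of the gene in NAC_HFD, 33.5% to 90.9% in HFD and 24.9% to 63.8% in NFD.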

How the data were processed

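Per the submitters' processing notes, fastp, HISAT and RSEM were used with build GRCm38; versions, settings, roles and how reads were split between transcripts were not given in the sources used here. Deposited gene, mRNA and lncRNA tables hold TPM per library, made by the authors. Their comparison tables hold a ratio (fold change), a log2 fold change and p-values per the file headers, from a test that no source used here names. Depth is unknown, since TPM keeps no counts; between 10864 and 11316 genes per library reached 1 TPM, and no 2 libraries were identical.

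Genes with at least 1 TPM in at least 4 of 12 libraries were tested (11376 of 19252; all 10 members passed). One limma 3.58.1 model (R 4.3.3; eBayes with trend and robust) with 3 group means was fitted to log2(TPM + 1), two-sided, with Benjamini-Hochberg adjustment over all tested genes and a threshold of 0.05. It was also run on simulated data in which genes varied independently. The 10 genes varied together here, so that run does not bear on them as a set. Fold changes are on that scale and understate low genes. The Timd4 to Clec4f ratio had an exact permutation test (scipy 1.17.1). Alternatives changed the pseudocount, filter, scaling, moderation, replicate block and libraries used. Members and lists were chosen with earlier results of these data known. Named genes were the 10 members, up to 3 per list with the smallest p in HFD against NFD, and the 6 with the most similar profile; Csf1, Il34, Lgals3, Scarf1, Il1b and Cyp2e1 were named after their values were seen. Some genes of the lists are not reported here. Gene positions come from RefSeq, build GRCm38.p6.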

Additional observations from a re-analysis of the deposited data

Results flagged for a closer look

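Marco in HFD stood out because 1 library lay far from the other 3: replicate 4 was at 6.91 TPM and replicates 1 to 3 at 2.02, 2.00 and 1.12 TPM. Its gap to the nearest library was 0.845 of the group's range, over Dixon's 95% critical value for 4 samples. Of 30 combinations of gene and group examined, 1 went over that value, and chance takes about 1 in 20 groups over it.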

How the results depend on the processing

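Limma called 0 of the Kupffer cell genes tested in each comparison under the 22 alternatives: 10 were tested in 21 of them and 8 with the 5 TPM filter, which left out Marco and Timd4. The lowest adjusted p of a member were 0.0746 in HFD against NFD and 0.0668 in NAC_HFD against HFD, both Clec4f without HFD replicate 3. The members' median log2 fold change was 0.52 to 0.59 (HFD against NFD), -0.78 to -0.62 (NAC_HFD against HFD) and -0.17 to -0.07 (NAC_HFD against NFD) over the other alternatives. Leaving out 1 library gave 0.37 to 0.79, -0.95 to -0.50 and -0.33 to 0.01.

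The number of genes called moved more. For HFD against NFD it was 168 with no filter, 225 with the replicate block and 90 to 375 with 1 library left out, against 316. The split of 249 higher and 67 lower was 259 and 160 after quantile normalization and 188 and 99 after rescaling within the gene table. For NAC_HFD against HFD it was 3 with the replicate block and 0 to 64 with 1 library left out, against 0 (1870 at an unadjusted p under 0.05). For NAC_HFD against NFD it was 289 with no filter, 188 in a fit of those 2 groups only, 406 with the replicate block and 211 to 618 with 1 library left out, against 601. With no filter more genes were tested, and with fewer libraries fewer residual degrees of freedom remained; beyond that the cause was not tested.

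Equal replicate numbers gave no sign of pairing: 2 of 12 such pairs correlated over 0.1 (range -0.17 to 0.18). Pairs of unlike number ran from -0.25 to 0.22. These correlations cannot show that the libraries were unpaired. With the replicate block, Hpgd (adjusted p = 0.0879) and C4b (0.0513) no longer passed in HFD against NFD, and it changed no call of a member.

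The Timd4 to Clec4f difference of -0.015 in HFD against NFD had the other sign with no pseudocount (0.021), was -0.19 with a pseudocount of 1, and ran from -0.14 to 0.094 with 1 library left out. That of 0.15 in NAC_HFD against HFD was 0.10 and 0.36 with these pseudocounts and 0.037 to 0.27 with 1 library left out. That of 0.13 in NAC_HFD against NFD was 0.12 and 0.17, and 0.030 to 0.18. In NAC_HFD against NFD, where values lay near 0, 13 member fold changes had the other sign: Timd4 after quantile normalization (0.013), and the others with 1 library left out, where Cd5l ran from -0.30 to 0.040, C1qc from -0.37 to 0.057, Timd4 from -0.16 to 0.027, Adgre1 from -0.12 to 0.22 and Csf1r from -0.11 to 0.20. In the alternatives run, all other member fold changes kept their sign. TPM without depth, and genes near 1 TPM such as Timd4 and Marco, limit the precision.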
